A study of Mus musculus with 9 samples.

Results

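Insulin-like growth factor 1 (IGF1), its receptor and the proteins that bind and release it were followed through 9 genes: Igf1, Igf1r, Igfbp2, Igfbp3, Igfbp4, Igfbp5, Igfbp6, Igfbp7 and Pappa. They were chosen by gene name, and all 9 were present among the 55286 genes of the deposited tables. RNA-seq was made from wild-type mouse lung in 3 groups of 3 libraries. The first group was fresh lung of E11.5 embryos, named by their day of gestation, with no culture or treatment. The second held explants of E11.5 lung kept for 72 h in vitro as controls. The third held E11.5 explants kept for 72 h with EPZ5676 (pinometostat), an inhibitor of DOT1L, the enzyme that methylates histone H3 at lysine 79. The study's title concerns the effect of this inhibition on branching of the embryonic lung. The dose, what the controls received and the number of embryos behind a library do not appear in the labels. Whether replicates of a group are separate embryos or cultures is not stated either. The p-values therefore measure the spread among these libraries alone, and that spread may be technical.

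IGF1 and IGF2 are secreted growth factors that signal mainly through IGF1R, a receptor tyrosine kinase at the cell surface that acts through insulin receptor substrates, PI3 kinase and AKT. The IGF binding proteins hold the ligands in the extracellular fluid and matrix, which can limit or prolong their action. PAPPA, a secreted metalloproteinase, cuts IGFBP4 and so frees the ligand, and the stanniocalcins STC1 and STC2 inhibit it. In the mouse embryo this pathway drives growth, and animals without the receptor are small and die at birth of respiratory failure.

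Libraries held 6509563 to 9861452 counts. Of the 9 genes, 8 passed the filter on low counts and entered the test with 15158 genes in all; Igfbp6 did not. Levels are given as TPM, a measure of abundance per transcript length that lets genes be compared with each other. Changes are log2 fold changes from counts, each with its standard error (SE) and a Benjamini-Hochberg adjusted p from edgeR's quasi-likelihood test, and a change was called below 0.05. All 9 lung epithelium markers and all 8 lung mesenchyme markers were above 0 TPM in every library. The same held for the 9 endothelial and 10 macrophage markers, so presence alone is no test of the labelled tissue. The labels give the cell type of all 9 libraries as primary lung cells while the series text speaks of explants, and the libraries are read here as whole tissue. The libraries differed in other cell type markers. The summed TPM of 9 endothelial markers was 251 to 277 in fresh lung, 21.1 to 105 in control and 36.4 to 76.6 in EPZ5676 explants. For 10 macrophage markers these ranges were 41.0 to 66.3, 238 to 403 and 299 to 448, and for the 9 epithelial markers 364 to 397, 1056 to 1665 and 1494 to 2340. The widest step was that of 8 red cell markers, which summed to 17923 to 24866 TPM in fresh lung, 113 to 1175 in controls and 66.0 to 1024 in EPZ5676 explants. Of these 8, 7 fell in controls and all 8 in EPZ5676 explants, and 1 was at 0 TPM in control 2 and in control 3. In bulk tissue, fewer cells of a type and less RNA per cell cannot be told apart. Control replicate 1 held 227 TPM of 8 liver markers, against 1.92 and 2.35 in the other controls and at most 24.4 in fresh lung. Xist was at 0.25 to 0.77 TPM in control 3 and EPZ5676 1 and 3, and at 72.5 to 284 TPM in the other 6 libraries. The labels do not name the sex of the embryos.

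The bases just before the starts of 3 binding protein genes are shown, read from RefSeq on GRCm38.p6 and written 5′ to 3′ on the gene's own strand. For Igfbp5 the 19 bases next to the RefSeq start fall in annotated exons and are left out. Igfbp7 had the largest change of the 8 tested genes. Igfbp5 and Igfbp2 are neighbours, picked because their levels went in opposite directions among the cultured libraries. Capitals mark matches, on either strand, to GGGCGG (the core of the GC box), TATTTAA (resembling the TATA box) and CACGTG (an E-box).
Igfbp7, chr5:77408046-77408295, minus strand: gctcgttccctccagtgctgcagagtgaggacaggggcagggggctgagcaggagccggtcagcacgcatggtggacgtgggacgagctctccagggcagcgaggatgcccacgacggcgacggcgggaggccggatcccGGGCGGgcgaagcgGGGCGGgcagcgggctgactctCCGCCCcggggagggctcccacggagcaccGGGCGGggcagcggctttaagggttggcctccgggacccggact
Igfbp5, chr1:72874885-72875115, minus strand: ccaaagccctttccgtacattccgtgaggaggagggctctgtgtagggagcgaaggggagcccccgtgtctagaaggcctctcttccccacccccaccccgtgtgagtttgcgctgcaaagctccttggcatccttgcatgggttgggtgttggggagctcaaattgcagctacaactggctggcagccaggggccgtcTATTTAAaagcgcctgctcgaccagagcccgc
Igfbp2, chr1:72824230-72824479, plus strand: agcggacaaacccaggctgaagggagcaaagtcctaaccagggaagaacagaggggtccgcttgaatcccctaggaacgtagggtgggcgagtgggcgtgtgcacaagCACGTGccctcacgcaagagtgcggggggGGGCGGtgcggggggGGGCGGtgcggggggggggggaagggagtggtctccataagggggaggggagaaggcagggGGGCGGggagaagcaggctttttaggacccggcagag

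The Igfbp7 window held 4 GGGCGG matches, 26 CpG dinucleotides and 74% G and C. The Igfbp2 window held 3 GGGCGG matches, 1 CACGTG match and 14 CpG. The Igfbp5 window held 1 TATTTAA match, none of GGGCGG, and 10 CpG over its full 250 bases. Among 32851 windows of 250 bases before gene starts, 32.7% held GGGCGG, 6.02% CACGTG and 4.18% TATTTAA, and the median window held 6 CpG and 52.4% G and C. A further 3 motifs were searched on both strands: TATAAA (the TATA box, in 12.4% of windows), TGANTCA (the AP-1 site, 6.75%) and GTAAACA (the FOXO and forkhead site, 3.17%). None of them matched in the 3 windows shown, while TATAAA matched once in the Igfbp4 window and once in that of Igfbp6. TGANTCA matched once in the Igf1 window and once in a second Igfbp2 window, at a start further into the gene (72825137 to 72825386). All 250 bases of the Igf1 window fell in annotated exons, and its RefSeq start was 2846 bases from the GENCODE gene start. In the second Igfbp2 window 65 bases fell in exons, and the other 185 held no match. GTAAACA matched in no window of the 8 genes present in the RefSeq table. These matches are a description of letters and no measure of binding.

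Igf1, the ligand, was higher after culture. The gene lies on chromosome 10 at 87858265 to 87937042 on the plus strand (GRCm38, as are all gene positions here). Its level in fresh lung was 32.1, 29.4 and 34.0 TPM in replicates 1, 2 and 3. In control explants it was 117, 83.8 and 90.4 TPM, and in EPZ5676 explants 108, 85.8 and 124 TPM. Every cultured library was above every fresh one, and the control and EPZ5676 libraries overlapped. Igf1 rose by 1.31 ± 0.10 on the log2 scale (SE) in control explants against fresh lung (2.47-fold, n = 3 against 3, edgeR adjusted p = 1.0e-05). In EPZ5676 explants the rise was 1.38 ± 0.10 (2.60-fold, edgeR adjusted p = 5.2e-06). By level, Igf1 moved from rank 4797 among all genes in fresh lung to rank 1360 in controls and 1219 in EPZ5676 explants. Between EPZ5676 and control explants the log2 difference was 0.07 ± 0.09, with a 95% interval of -0.13 to 0.28 (edgeR adjusted p = 0.925).

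**Figure D1:**
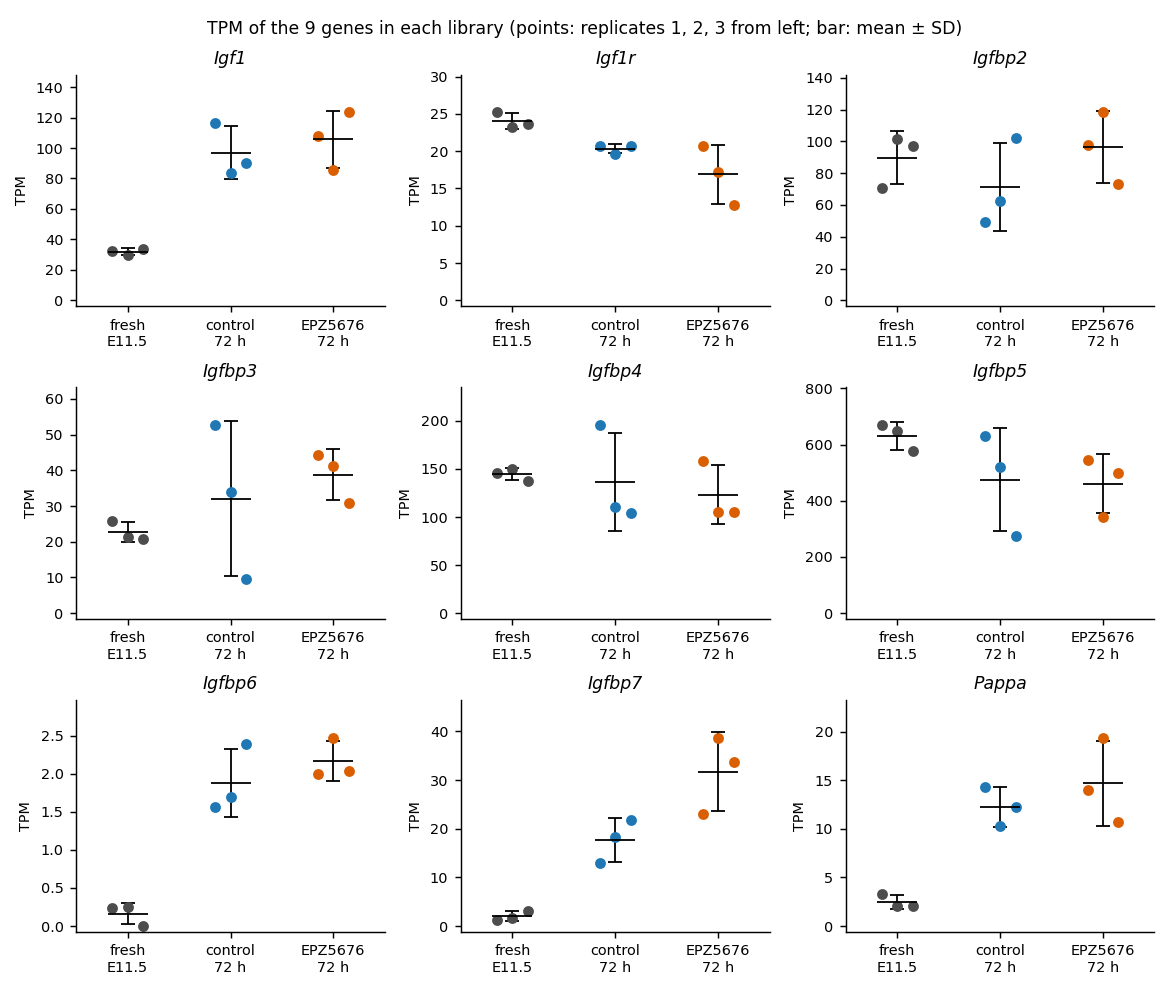
TPM of each of the 9 genes (y axes, each from about 0 and on its own scale) in the 3 libraries of each group, drawn as points with the mean and SD (x axes: fresh E11.5 lung, control and EPZ5676 explants at 72 h). Igf1, Igfbp6, Igfbp7 and Pappa are higher in all 6 cultured libraries than in any fresh one, and Igfbp3 and Igfbp5 are lowest in control replicate 3.

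Igf1r encodes the receptor. It lies on chromosome 7 at 67952827 to 68233668 on the plus strand. Its levels were 25.2, 23.2 and 23.7 TPM in fresh lung, 20.7, 19.6 and 20.7 TPM in controls, and 20.7, 17.2 and 12.8 TPM in EPZ5676 explants. The lowest of the 9 libraries was EPZ5676 replicate 3. The log2 difference was -0.10 ± 0.14 for control against fresh lung (edgeR adjusted p = 0.615) and -0.37 ± 0.14 for EPZ5676 against fresh lung (edgeR adjusted p = 0.0525). The second value lay at the threshold: it passed in 11 of 21 alternative analyses, with adjusted p from 0.0308 to 0.156. EPZ5676 against control gave -0.27 ± 0.14, with an interval of -0.58 to 0.03 (edgeR adjusted p = 0.752).

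Among the binding protein genes, Igfbp7 and Igfbp6 were near the bottom in fresh lung and the other 4 were well expressed. Igfbp7 encodes a secreted protein that binds IGFs weakly and is deposited in vessel walls and matrix, and it lies on chromosome 5 at 77349240 to 77408041 on the minus strand. Fresh lung held 1.21, 1.72 and 3.16 TPM, controls 12.9, 18.3 and 21.8 TPM, and EPZ5676 explants 22.9, 38.7 and 33.7 TPM. All 3 groups were apart in TPM, although the lowest EPZ5676 library and the highest control differed by little. Igfbp7 rose by 3.17 ± 0.43 in control explants (8.98-fold, edgeR adjusted p = 3.7e-04) and by 3.96 ± 0.43 in EPZ5676 explants (15.6-fold, edgeR adjusted p = 7.3e-05) against fresh lung. Only 1.62% and 1.16% of tested genes had a higher log2 fold change in these comparisons. The fresh libraries rested on 5, 7 and 13 counts. The exons of Igfbp7 share 85 of their 1209 bases (7.03%) with Polr2b on the other strand, and no label says whether counting used the strand. Reads from those bases cannot be assigned to either gene.

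Igfbp6 encodes a binding protein with a preference for IGF2. It lies on chromosome 15 at 102144362 to 102149511 on the plus strand, and it had the lowest level of the 9 genes in each group. Its counts were 1, 1 and 0 in fresh lung, 9, 7 and 11 in controls and 10, 11 and 9 in EPZ5676 explants. The fresh library with 0 counts allows up to 0.455 CPM (counts scaled to the depth of the library) at a floor of 3 counts. In TPM, fresh lung was at 0 to 0.25, controls at 1.56 to 2.39 and EPZ5676 explants at 2.00 to 2.47. The pooled rates differed 11.6-fold between control and fresh lung (95% interval 2.92 to 101) and 13.6-fold between EPZ5676 and fresh lung (3.45 to 117), intervals that cover counting error only. With no filter on low counts, edgeR gave a log2 difference of 3.38 ± 0.85 (adjusted p = 0.00293) and 3.54 ± 0.84 (adjusted p = 0.00147), and 0.16 ± 0.58 for EPZ5676 against control.

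Igfbp5 was the most abundant of the 9 genes in every group, and no library of another of the 9 reached its lowest value within a group. Its product is a matrix-bound protein found in mesenchyme. The gene ranked 221 among all genes in fresh lung, 259 in controls and 252 in EPZ5676 explants. Fresh lung held 670, 647 and 576 TPM, controls 632, 521 and 274 TPM, and EPZ5676 explants 544, 341 and 499 TPM. The cultured libraries were spread more widely than the fresh ones, and control replicate 3 and EPZ5676 replicate 2 were lowest. The log2 difference from fresh lung was -0.39 ± 0.21 in controls (edgeR adjusted p = 0.162) and -0.44 ± 0.21 in EPZ5676 explants (edgeR adjusted p = 0.118), neither past the threshold. The second passed in 2 of 21 alternatives, the fit of those 6 libraries alone (adjusted p = 0.0195) and the fit without control replicate 3 (adjusted p = 0.0214), over a range of 0.0195 to 0.400.

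Igfbp2, which encodes another abundant binding protein of embryonic tissue, lies beside Igfbp5 on chromosome 1. It spans 72824503 to 72852474 on the plus strand and Igfbp5 spans 72857932 to 72874884 on the minus strand. Their ends face each other across 5457 bases, with 0 annotated genes between. Igfbp2 was at 70.6, 102 and 96.8 TPM in fresh lung, 49.0, 62.2 and 102 TPM in controls, and 97.4, 118 and 73.3 TPM in EPZ5676 explants. The 2 cultured libraries highest in Igfbp2 were the 2 lowest in Igfbp5. The ratio of Igfbp5 to Igfbp2 TPM was 2.68 in control replicate 3 and 2.88 in EPZ5676 replicate 2, and 5.59 to 12.9 in the other 4 cultured libraries. In fresh lung it was 5.96 to 9.49. The group comparisons of Igfbp2 gave -0.11 ± 0.33 for control and 0.22 ± 0.33 for EPZ5676 against fresh lung (edgeR adjusted p = 0.813 and 0.629). The first of these turned positive, to 0.13, without control replicate 1.

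Igfbp4 encodes the main substrate of PAPPA and lies on chromosome 11 at 99041244 to 99054392 on the plus strand. Fresh lung held 146, 150 and 137 TPM, controls 196, 110 and 105 TPM, and EPZ5676 explants 158, 105 and 105 TPM. Replicate 1 of each cultured group stood above the other libraries of its group. The log2 differences were -0.14 ± 0.15 and -0.33 ± 0.15 for control and EPZ5676 against fresh lung (edgeR adjusted p = 0.479 and 0.0921). The second passed in 4 of 21 alternatives, with adjusted p from 0.0235 to 0.422, among them the fits without control replicate 1 (0.0430) and without EPZ5676 replicate 1 (0.0235).

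Igfbp3, whose product is the main IGF carrier of the blood and is made by endothelium and other stromal cells, lies on chromosome 11 at 7206086 to 7213923 on the minus strand. Fresh lung held 25.9, 21.4 and 20.9 TPM. Controls held 52.7, 34.0 and 9.45 TPM and EPZ5676 explants 44.3, 41.2 and 30.8 TPM. Of the 6 cultured libraries 5 were above every fresh one, and control replicate 3 was below them all. The log2 difference for control against fresh lung was 0.48 ± 0.43 (edgeR adjusted p = 0.416). Without control replicate 3 it was 0.88 ± 0.18 (edgeR adjusted p = 0.00383), and adjusted p ranged from 0.00383 to 0.962 over 21 alternatives. EPZ5676 against fresh lung gave 0.79 ± 0.43 (edgeR adjusted p = 0.185), past the threshold in 3 of 21 alternatives, with adjusted p from 0.00138 to 0.396. With Xist as a covariate, 1 of these 3, the value moved to 1.41 ± 0.31 (edgeR adjusted p = 0.0102). Xist was near 0 in no fresh library and in control replicate 3, the library lowest in Igfbp3. That covariate therefore cannot be told apart from group and this library, and the value is no estimate adjusted for sex. Another of the 3 was the fit without control replicate 3, where the shared estimate of the spread was smaller (0.79 ± 0.16, adjusted p = 0.00315). The endothelial markers were also lowest in control replicate 3, at a summed 21.1 TPM against 44.9 and 105 TPM in the other controls, with 0 of the 9 markers at 0 TPM. They were not alone in this. Among the controls, the summed smooth muscle, macrophage, cartilage and red cell markers were lowest there too, while the epithelial markers were highest. In EPZ5676 explants, replicate 1 was highest in both Igfbp3 and the endothelial sum. Replicate 2 had the lowest endothelial sum (36.4 TPM), but its Igfbp3 (41.2 TPM) was above that of replicate 3 (30.8 TPM). Across groups the endothelial markers went the other way from Igfbp3, since all 9 were lower in both cultured groups than in fresh lung. The part of any of these marker lists in the Igfbp3 values was not tested.

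Pappa encodes the protease that cuts IGFBP4. It lies on chromosome 4 at 65124174 to 65357509 on the plus strand. Fresh lung held 3.34, 2.06 and 2.07 TPM, controls 14.3, 10.3 and 12.2 TPM, and EPZ5676 explants 14.0, 19.4 and 10.7 TPM. Every cultured library was above every fresh one. Pappa rose by 2.35 ± 0.27 in controls (5.11-fold, edgeR adjusted p = 2.4e-04) and by 2.59 ± 0.27 in EPZ5676 explants (6.01-fold, edgeR adjusted p = 1.2e-04) against fresh lung. Its substrate gene Igfbp4 passed the threshold in neither comparison.

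Against fresh lung, then, 3 of the 8 tested genes were called in control explants (37.5%) and the same number in EPZ5676 explants, in both cases Igf1, Igfbp7 and Pappa, all higher. Of all tested genes, 37.7% were called in the first comparison, 21.1% higher and 16.6% lower. In the second, 40.0% were called, 22.1% higher and 17.9% lower. The share of the 8 genes called was therefore close to that of all genes, and nothing particular to them is read from it. The log2 CPM ranges of the groups did not overlap for 4 of the 8 genes in control explants (50%, against 51.4% of all tested genes). In EPZ5676 explants this held for 7 of the 8 (87.5%, against 57.3%), all but Igfbp2. Both comparisons use the same fresh libraries. Culture and the age the explants reached cannot be told apart here, since no fresh lung of the later age was sequenced among these 9 libraries. Macrophage and epithelial markers moved the same way as Igf1, Igfbp7 and Pappa: 9 of 10 macrophage markers rose in each cultured group against fresh lung, and 7 and 8 of 9 epithelial markers rose in controls and EPZ5676 explants, with none of either list at 0 TPM in any library. Of the 5 smooth muscle markers, 3 rose in each cultured group, from a summed 174 to 354 TPM in fresh lung to 372 to 655 in controls and 334 to 571 in EPZ5676 explants. Their part in the results was not tested.

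**Figure D2:**
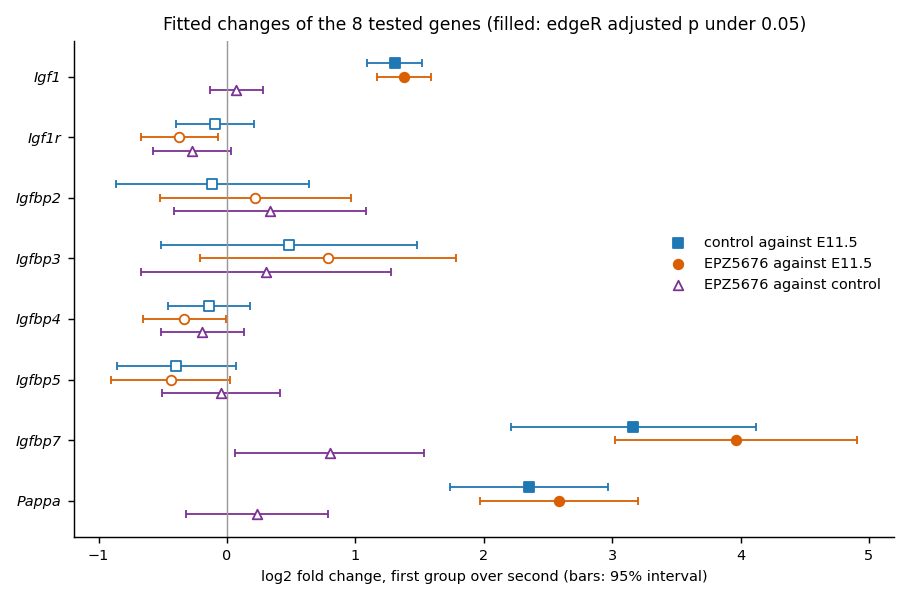
Fitted log2 fold changes (x axis) of the 8 tested genes (y axis) in the 3 comparisons, with 95% intervals and filled symbols for an edgeR adjusted p under 0.05. Igf1, Igfbp7 and Pappa are filled against fresh lung, and no symbol is filled for EPZ5676 against control.

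EPZ5676 against control explants is the comparison the inhibitor was used for, and it gave 0 called genes among the 8 and 0 (0%) among all 15158 with edgeR. At an unadjusted p under 0.05 there were 6.94% of all genes and 1 of the 8, Igfbp7. In log2 CPM the groups overlapped for all 8, against 10.2% of all genes whose groups did not. The log2 difference of Igfbp7, EPZ5676 over control, was 0.80 ± 0.33, with a 95% interval of 0.06 to 1.54 (unadjusted p = 0.0364, edgeR adjusted p = 0.684). Its mean TPM was 31.7 ± 8.0 against 17.7 ± 4.5 (SD, n = 3), a ratio of 1.80. The TPM ranges did not overlap, and 3.17% of tested genes had a higher log2 fold change. Most mesothelium, epithelium and macrophage markers were also higher in EPZ5676 explants, though none passed the test. The 5 mesothelium markers summed to 26.4, 30.2 and 26.4 TPM in controls and 38.4, 79.4 and 44.4 TPM in EPZ5676 explants, where replicate 2 was highest, as for Igfbp7. All 5 had a log2 fold change above 0, with a median of 0.76, and none was at 0 TPM in any library. All 9 epithelial markers were above 0 too, with a median of 0.24, and their mean log2 CPM was 6.66 to 6.97 in controls and 7.09 to 7.21 in EPZ5676 explants. Of the 10 macrophage markers 9 were above 0, with a median of 0.23, and their sums overlapped between the groups. The part of these markers in the Igfbp7 difference was not tested. For the other genes the 95% intervals show what these libraries leave possible. They ran from -0.32 to 0.79 for Pappa, from -0.41 to 1.08 for Igfbp2, from -0.67 to 1.28 for Igfbp3, from -0.51 to 0.13 for Igfbp4 and from -0.51 to 0.41 for Igfbp5. Igfbp3 gave 0.30 ± 0.42 here, -0.09 without control replicate 3 and 0.79 ± 0.29 with Xist as a covariate (edgeR adjusted p = 0.458, range 0.458 to 1 over 21 alternatives). Control replicate 3 was the only control with Xist near 0, so this covariate and that library cannot be told apart. The narrowest interval was that of Igf1. Across all genes, DESeq2 called 83 where edgeR called 0, and none of the 83 was one of the 9 genes.

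The 6 binding protein genes were next summed. Their summed level was 891 ± 49 TPM in fresh lung, 735 ± 215 in controls and 754 ± 111 in EPZ5676 explants (SD, n = 3), and the ranges overlapped. Igfbp5 made up 70.8% ± 2.2 of the sum in fresh lung, 63.3% ± 8.8 in controls and 60.8% ± 7.3 in EPZ5676 explants. Igfbp7 made up 0.233%, 2.69% and 4.38%. Set against the 2 ligand genes, the sum of binding protein transcripts was 0.674 to 0.722 of the sum of Igf1 and Igf2 in fresh lung. It was 0.323 to 0.433 in controls and 0.387 to 0.522 in EPZ5676 explants, so that fresh lung did not overlap the cultured groups. Within the ligands, Igf2 exceeded Igf1 by 33.8 to 42.4 times in fresh lung, 12.2 to 24.0 times in controls and 13.5 to 19.9 times in EPZ5676 explants. These ratios are of transcripts and were not tested.

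**Figure D3:**
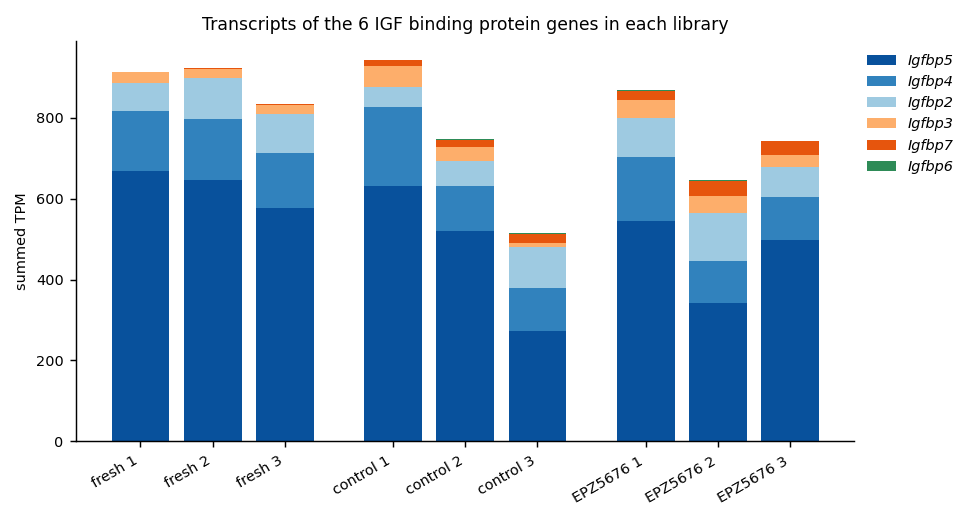
Summed TPM of the 6 IGF binding protein genes (y axis, from 0) in each of the 9 libraries (x axis), with 1 colour for each gene. Igfbp5 is the largest block in every bar, Igfbp7 is visible mainly in the cultured libraries, and the bar of control replicate 3 is the lowest at 514 TPM.

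The order of levels also differed between groups. In fresh lung it ran Igfbp5, Igfbp4, Igfbp2, Igf1, Igf1r, Igfbp3, Pappa, Igfbp7, Igfbp6, with overlapping neighbours only at Igf1r with Igfbp3 and at Pappa with Igfbp7. In controls it ran Igfbp5, Igfbp4, Igf1, Igfbp2, Igfbp3, Igf1r, Igfbp7, Pappa, Igfbp6, and all neighbours from Igfbp4 to Pappa overlapped. In EPZ5676 explants it ran Igfbp5, Igfbp4, Igf1, Igfbp2, Igfbp3, Igfbp7, Igf1r, Pappa, Igfbp6. There Igfbp4, Igf1 and Igfbp2 overlapped as neighbours, as did Igfbp3 with Igfbp7 and Igf1r with Pappa.

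For Igf1 the rise was larger in TPM than in counts: the ratio of mean TPM between control and fresh lung was 3.04, against 2.47-fold from counts. TPM divides each gene's counts by the length of its transcripts, so the 2 deposited tables together imply a length for each gene in each library, up to a scale. This length was computed for 8997 genes with enough reads and scaled on 651 genes with a single annotated transcript, a measure chosen after the data were seen. It is a scaled estimate, to be compared between libraries rather than read as a transcript's own length: for Igfbp5 it was 6251 to 6297 bases, above the longest annotated transcript of 6006. For Igf1 it was 6552, 6740 and 5899 bases in fresh lung, 5014, 5230 and 4900 in controls, and 5043, 5443 and 4534 in EPZ5676 explants. Every cultured library was shorter than every fresh one. The log2 ratio was -0.34 for control and -0.35 for EPZ5676 against fresh lung, and only 0.345% and 0.267% of the 8997 genes had a lower one. Between EPZ5676 and control it was -0.01. Igf1 has 8 annotated transcripts of 510 to 7052 bases. Which of them the reads came from is not in the gene-level tables used here.

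The same length stayed nearly constant for Igfbp3, at 2408, 2417 and 2411 bases in the fresh, control and EPZ5676 group means, and for Igfbp5, at 6264, 6284 and 6294. The Igfbp5 groups did not overlap, at log2 ratios of only 0.005 and 0.007 for control and EPZ5676 against fresh lung. For Igf1r the length was 10303, 10962 and 11287 bases, with overlapping groups. Igfbp2 was at 1000, 1109 and 1070 bases, and both cultured groups lay above fresh lung without overlap. Of the 8997 genes, 10.4% and 17.3% had a higher log2 ratio than Igfbp2 in controls and EPZ5676 explants. Igfbp4 was at 2648, 2536 and 2470 bases, and EPZ5676 explants lay below fresh lung without overlap. There 6.92% of genes had a lower ratio. Igfbp7 and Pappa were too low in fresh lung for this measure, and Igfbp6 was too low in all 9 libraries.

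**Figure D4:**
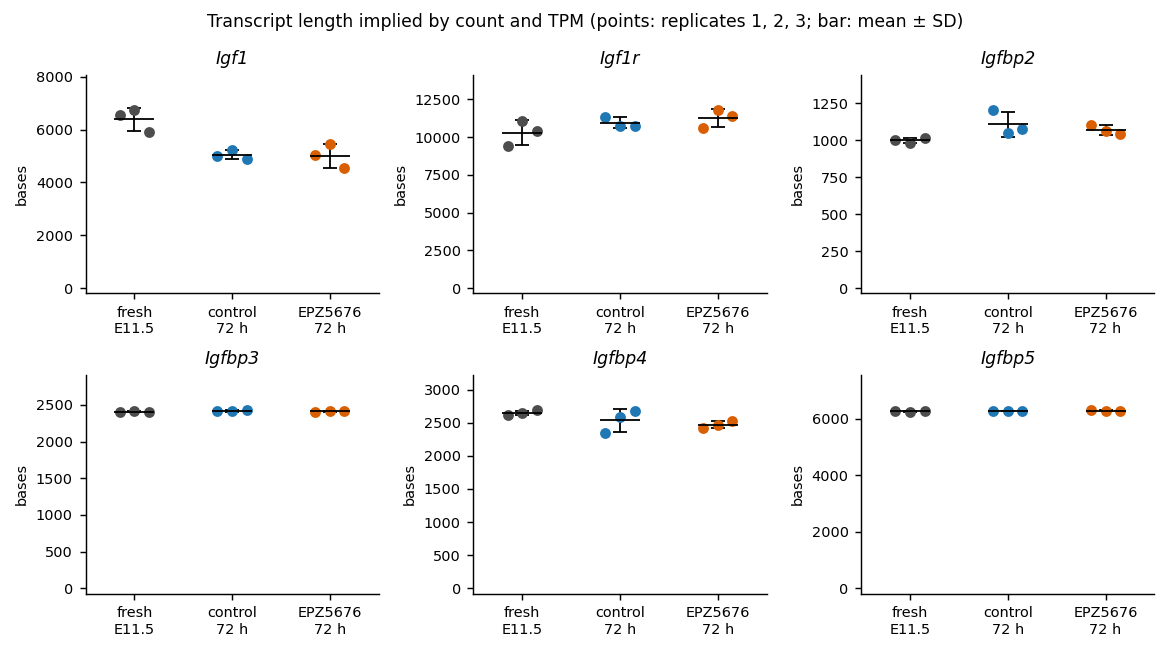
Transcript length implied by count and TPM (y axes, in bases, each on its own scale) for the 6 genes with enough reads, in the 3 libraries of each group (x axes), with mean and SD. Igf1 is at 5899 to 6740 bases in fresh lung and at 4534 to 5443 in the cultured libraries, while Igfbp3 and Igfbp5 lie almost flat.

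Other genes of the pathway were read from lists of related genes. Among 5 other ligand and receptor genes, Igf2, Insr and Igf2r were tested. Igf2, the fetal ligand, was at 1240 ± 88 TPM in fresh lung, 1849 ± 869 in controls and 1655 ± 493 in EPZ5676 explants (SD, n = 3), and passed in no comparison. Insr, the insulin receptor gene, and Igf2r, whose product clears IGF2, fell in EPZ5676 explants against fresh lung by 0.27 ± 0.07 and 0.38 ± 0.11 on the log2 scale (edgeR adjusted p = 0.0136 and 0.0174). In control explants the differences were -0.03 ± 0.07 and -0.18 ± 0.11, not past the threshold. The falls in EPZ5676 explants made up 66.7% of the 3 tested genes, where 40.0% of all tested genes were called and 17.9% fell. For EPZ5676 against control, 0 of the 3 passed. Ins2 was at 0 TPM in all 9 libraries, and Insrr was too low to test.

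Of 8 further binding proteins and regulators, 6 were tested, of which 3 rose and 1 fell in each cultured group against fresh lung. That is 66.7% of the 6, against 37.7% and 40.0% of all tested genes. Htra1, a secreted protease that can cut IGF binding proteins, rose by 2.94 ± 0.45 in controls and 3.57 ± 0.44 in EPZ5676 explants (edgeR adjusted p = 6.9e-04 and 1.7e-04). The PAPPA inhibitors rose beside Pappa itself: Stc1 by 1.57 ± 0.25 and 1.39 ± 0.25 (edgeR adjusted p = 8.1e-04 and 0.0014), and Stc2 by 2.01 ± 0.39 and 1.59 ± 0.39 (edgeR adjusted p = 0.0028 and 0.0088). Igfbpl1, a gene related to the binding proteins, fell by 2.21 ± 0.39 and 2.99 ± 0.42 (edgeR adjusted p = 0.0016 and 3.4e-04). Igfbpl1 rested on 13, 8 and 6 counts in controls and 8, 5 and 2 in EPZ5676 explants. Htra1 rested on 9, 10 and 8 counts in fresh lung, so the size of both changes is uncertain. Pappa2, which encodes a second protease of this kind, and Adam12 did not pass. The median log2 fold change of the 6 was 1.03 in controls and 1.10 in EPZ5676 explants, against 0.02 for all genes in both.

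Igfbp1 and Igfals were too low to test. Igfbp1, a liver-made binding protein whose gene lies 3539 bases from Igfbp3, was at 8.29 TPM in control replicate 1 and at most 0.42 TPM in the other 8 libraries. Control replicate 1 is the library with 227 TPM of liver markers. Without it the log2 rise of Igf1 in controls was 1.26, and Igf1, Igfbp7 and Pappa were still called.

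The 3 genes of the IGF2 mRNA-binding proteins, which bind Igf2 and other fetal transcripts, all fell in both cultured groups against fresh lung, where 16.6% and 17.9% of all tested genes fell. Igf2bp1 fell by 1.45 ± 0.16 in controls and 2.10 ± 0.17 in EPZ5676 explants (edgeR adjusted p = 1.3e-04 and 1.4e-05). Igf2bp2 fell by 0.64 ± 0.10 and 0.88 ± 0.10, and Igf2bp3 by 0.83 ± 0.12 and 1.18 ± 0.12. Igf2bp1 was at 45.9, 67.7 and 56.0 TPM in fresh lung, 27.5, 19.4 and 17.2 TPM in controls and 13.6, 12.6 and 12.5 TPM in EPZ5676 explants, so that the 3 groups did not overlap. The red cell markers were lower beside the Igf2bp genes and Igfbpl1 in both cultured groups, and their part in these results was not tested. For EPZ5676 against control the difference of Igf2bp1 was -0.65 ± 0.16 (edgeR adjusted p = 0.341), which did not pass.

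**Figure D5:**
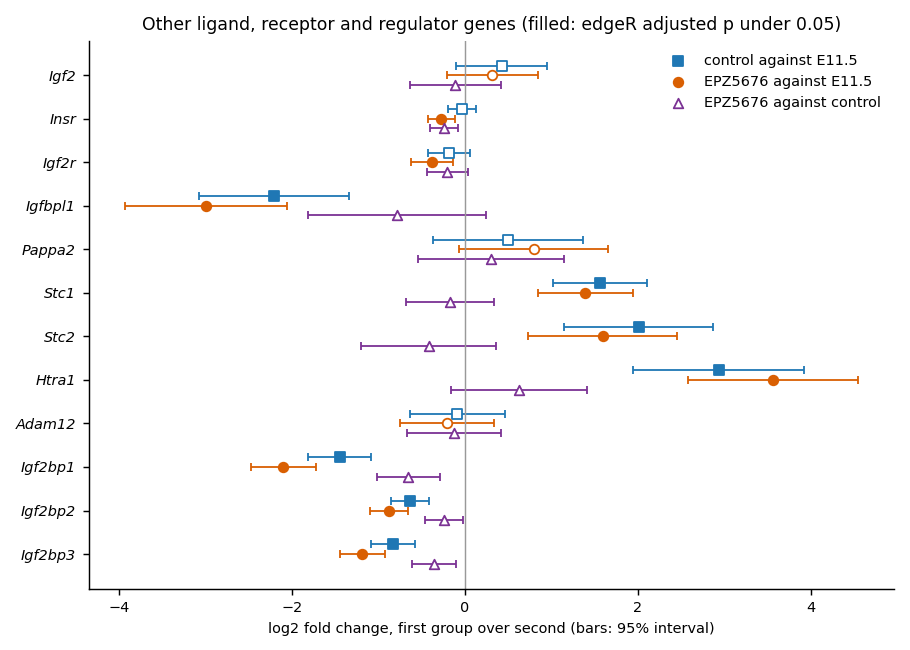
Fitted log2 fold changes (x axis) with 95% intervals of 12 related genes (y axis) in the 3 comparisons, filled where the edgeR adjusted p was under 0.05. Htra1, Stc1 and Stc2 lie to the right and Igfbpl1 and the 3 Igf2bp genes to the left against fresh lung, and no symbol is filled for EPZ5676 against control.

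Downstream of the receptor, 34 signalling genes were tested. In controls 10 rose and 3 fell against fresh lung, and in EPZ5676 explants 9 rose and 5 fell, with median log2 fold changes of 0.05 and 0.03. The shares called, 38.2% and 41.2%, were close to the 37.7% and 40.0% of all tested genes. The largest changes in controls were rises of Grb14, an adaptor that inhibits the insulin receptor (1.14 ± 0.22), Pik3r1, a regulatory subunit of PI3 kinase (0.88 ± 0.12), Eif4ebp1, a repressor of translation (0.76 ± 0.12), and Irs1, a receptor substrate (0.76 ± 0.14). In EPZ5676 explants they were Grb14 (1.11 ± 0.22), Irs1 (0.85 ± 0.14), Pik3cb, a catalytic subunit of PI3 kinase (0.84 ± 0.19), and Eif4ebp1 (0.83 ± 0.12). No gene of the list passed for EPZ5676 against control, where the median was -0.01.

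Of 20 genes for FOXO factors and their targets, which AKT restrains when the receptor is active, 9 rose and 0 fell in controls against fresh lung, and 8 rose and 1 fell in EPZ5676 explants. In both, 45% of the list was called, against 37.7% and 40.0% of all tested genes, and rises made up 45% and 40% of the list, against 21.1% and 22.1%. The median was 0.45 and 0.44, against 0.02 for all genes. Bcl6, a transcriptional repressor, rose by 3.33 ± 0.26 and 3.42 ± 0.26. Bcl2l11, which encodes the cell death protein BIM, rose by 1.08 ± 0.13 and 1.15 ± 0.13. Cited2 rose by 0.93 ± 0.27 and 0.94 ± 0.27, and Fbxo32, a ubiquitin ligase gene, by 0.96 ± 0.25 and 0.93 ± 0.25. Klf15 rose in controls (1.23 ± 0.40, edgeR adjusted p = 0.0339) and gave 1.06 ± 0.41 in EPZ5676 explants (edgeR adjusted p = 0.0597). Insr is also on the receptor list above and is the 1 gene that fell, and Irs2 is also on the signalling list, so the lists are not separate. These genes have other regulators too, and the list says nothing of receptor activity. Between EPZ5676 and control explants 0 of the 20 passed.

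Last, for each tested gene the genes most like it were found among 10597 genes with a mean of at least 5 TPM, by Pearson's r of log2 CPM. The 9 libraries share their groups, so a high r follows in part from the step between fresh and cultured lung, and it is given as a description. Over 9 libraries Igf1 was most like Tmbim6, Ctsd and Tmed3 (r = 0.999, 0.998 and 0.997). Pappa was most like Enpp2, Fgf2 and Id4 (r = 0.997, 0.996 and 0.991), and for Igfbp7 the leading genes were Tmem30a and Ptpn3 (r = 0.991 and 0.990). Igf1r was most like Foxp2 (r = 0.976), and Foxp2 also led over the 6 cultured libraries alone (r = 0.995). In the same way Glul led for Igfbp5 over 9 and over 6 libraries (r = 0.984 and 0.996). For Igf1 and Igfbp7 the leading gene changed to Olfml2b (r = 0.988) and S100a6 (r = 0.987) within the 6. Over the 6 the leading r ran from 0.987 for Igfbp7 to 0.997 for Igfbp3. With 10597 candidates and only 6 libraries, high leading values are easily found, and each of the tested genes had one. They were not computed for other genes. The 6 are also part of the 9, so a repeated lead is no separate result.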

How the data were processed

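RNA-seq was made from 9 libraries of mouse lung, 3 in each of 3 groups. Per the labels' protocols, RNA came from a TRIzol extraction and went into Vazyme VAHTS Universal V8 libraries. RSEM, Bowtie2 and mm10 are named in the submitters' processing notes, which give neither their versions nor their roles. Expected counts were deposited as 1 table, whose values are estimates and can be fractions, and TPM, which the authors scaled by transcript length and depth, as another. Expected counts divide reads between similar genes, so values of paralogs are estimates. All 55286 pairs of identifier and symbol matched GENCODE M21 (GRCm38, the assembly of mm10), the source of the positions.

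Expected counts were rounded, filtered with filterByExpr (minimum count 10), scaled by TMM and fitted in 1 model of all 9 libraries with edgeR 4.0.16 in R 4.3.3 (robust quasi-likelihood F test, legacy method, two-sided, Benjamini-Hochberg over all 15158 genes, threshold 0.05). The SE came from the F statistic. A prior count of 2 went into log2 CPM. Depth was 6509563 to 9861452 counts per library, so genes with few counts are measured with little precision. Alternatives were other scalings, filters and fits, DESeq2 1.42.0, limma 3.58.1 on log2(TPM + 1) and log2(TPM + 0.1), Xist as a covariate, a replicate block, each library left out and, added after seeing the data, edgeR's newer quasi-likelihood method. The fit was tested on simulated data. Figures used matplotlib 3.10.9.

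The 9 genes and all lists were chosen with earlier results of these data known. Named were the 9 genes, every gene of the 3 short lists, up to 4 passed genes with the largest change of the signalling and FOXO lists per comparison, and the 3 genes most like each of the 9, of which a selection is given. Protein sequences were not used here.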

Additional observations from a re-analysis of the deposited data

How the results depend on the processing

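The calls of Igf1, Igfbp7 and Pappa against fresh lung held in 21 of 21 alternatives in both comparisons, with log2 fold changes of 1.26 to 1.59 and 1.31 to 1.71 for Igf1, 2.65 to 3.64 and 3.45 to 4.43 for Igfbp7, and 1.94 to 2.61 and 2.15 to 2.84 for Pappa (control and EPZ5676). None of the 8 tested genes passed for EPZ5676 against control in any alternative. Across all genes that comparison gave 0 calls with edgeR, 83 with DESeq2, 76 with no filter and 0 to 26 with a library left out (26 without EPZ5676 replicate 2, 1 without control replicate 2 and 1 without EPZ5676 replicate 3). For EPZ5676 against fresh lung, 3 of the 9 genes passed, 5 with no filter, 7 in the fit of those 6 libraries alone and 4 to 6 with a library left out (6 without control replicate 1 or control replicate 3, 5 without EPZ5676 replicate 1). With a library left out the low-count filter can also admit Igfbp6.

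Directions turned only for differences that passed in no fit of that comparison. For EPZ5676 against control, Igfbp5 was at 0.012 and 0.013 with limma on log2(TPM + 1) and log2(TPM + 0.1), at 0.054 with Xist as a covariate, and at -0.26 to 0.11 with a library left out. With a library left out, Igf1 was at -0.0044 to 0.12, Igfbp3 at -0.093 to 0.76 and Pappa at -0.065 to 0.41. Igfbp2 in control against fresh lung was at -0.57 to 0.13. The cause was not tested.

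The labels do not say what a replicate number marks. The deviations of same-numbered EPZ5676 and control libraries correlated at 0.457, 0.079 and -0.047 over genes, and not every library correlated best with its own number. These values cannot settle whether same-numbered libraries share a litter or a day. With the replicate block, calls over all genes went from 0 to 1 for EPZ5676 against control, from 5711 to 5669 for control and from 6062 to 6027 for EPZ5676 against fresh lung.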
